A study of Mus musculus with 101 samples.

Results

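Copy number of 4 neighbouring genes on mouse chromosome 9 was described in 98 mammary tumours: Trpc6, Pgr, Arhgap42 and Cntn5. They were chosen by symbol, 4 of the 43513 gene symbols measured, because they lie on the telomeric side of Yap1, the gene at the centre of a recurrent amplicon. The question was how often Pgr and its neighbours are carried in that amplicon and how often they are left outside it.

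There were 18 KP, 31 KB1P, 24 KB1(L1363P)P and 25 KB2P tumours, and 3 spleens gave the normal tissue. Of the 31 tumours with the genotype label KB1P, 10 are titled KB1PM and were kept in that group. In the usual naming of these mice, which the labels do not spell out, K stands for a Cre recombinase under the keratin 14 promoter, active in epithelial cells of skin and mammary gland. P stands for loss of Trp53, which all 4 genotypes share. KB1P adds loss of Brca1 and KB2P loss of Brca2, and KB1(L1363P)P carries a Brca1 missense allele in the coiled-coil that binds Palb2. The labels give no age. Sarcomatoid histology was given for 12 KB1(L1363P)P and 10 KP tumours, carcinosarcoma for 9 and 2, and adenocarcinoma for 3 and 6. KB1P held 29 adenocarcinomas, 1 carcinosarcoma and 1 sarcomatoid tumour, and all 25 KB2P tumours were adenocarcinomas.

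Pgr encodes the progesterone receptor, a nuclear hormone receptor that acts in a subset of luminal mammary cells and drives the branching and alveolar growth of the gland. Yap1 encodes a transcriptional co-activator at the end of the Hippo pathway, and it is a known target of amplification in mouse and human tumours together with the apoptosis inhibitors Birc2 and Birc3. An amplicon carries whatever DNA lies between its edges, so genes beside the selected one may gain copies with it. DNA was measured here, and RNA and protein of these genes were not analysed.

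In the gene table of GRCm38.p6, the mouse assembly known as mm10, Yap1 covers chr9:7931999-8004638. Trpc6, at chr9:8543867-8680752, encodes a calcium-permeable cation channel opened by diacylglycerol. Pgr lies at chr9:8898900-8968611. Arhgap42, at chr9:8992507-9239027, encodes a GTPase-activating protein. Cntn5, at chr9:9634223-10904775, encodes a neural cell adhesion molecule of the contactin family. Each range is a whole gene from first to last exon, introns included. Trpc6 begins 539.2 kb beyond the end of Yap1, Pgr 894.3 kb, Arhgap42 987.9 kb and Cntn5 1629.6 kb. Cntn5 is by far the longest of them at 1270.6 kb, against 69.7 kb for Pgr. Protein-coding Cfap300 and Cep126 lie between Yap1 and Trpc6. The other symbols placed between Trpc6 and Cntn5 are non-coding RNAs and pseudogenes.

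Each gene has 3 deposited values per sample. The segment value is the log2 copy ratio after neighbouring bins were joined into stretches of equal copy number, and 0 is the neutral level. The log2 ratio is the same quantity before this joining. The copy score is a whole number with 2 as the neutral state, so that a gain is called from a segment value of about 0.32 upward and a loss from about -0.42 downward. High-level gain means here a segment value of at least 1. In bulk DNA, fewer copies per tumour cell and a smaller share of tumour cells cannot be told apart. The 3 spleens had a copy score of 2 for Yap1 and all 4 neighbours, with segment values of -0.0014, 0.0010 and 0.0013.

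Pgr was at high-level gain in 19 of the 98 tumours, and in each of them Yap1 was at high-level gain too. Yap1 reached that level in 26 tumours: 12 KB1(L1363P)P, 11 KP, 2 KB1P and 1 KB2P. By histology these were 20 of 23 sarcomatoid tumours, 3 of 12 carcinosarcomas and 3 of 63 adenocarcinomas. The cation channel gene Trpc6 was carried, that is at high-level gain itself, in 21 of the 26 tumours (80.8%). Pgr and Arhgap42 were each carried in 19 (73.1%), with a 95% exact binomial interval of 52.2% to 88.4% that treats tumours as independent. Cntn5, the farthest, was carried in 14 (53.8%). On the other side of Yap1, Birc2 and Birc3 had the same segment value as Yap1 in 26 of 26 tumours, as did Cfap300 and Cep126 close by on the telomeric side. Mmp13, a collagenase gene farther out beyond Birc3, had it in 21 and was at high-level gain in 25. These tumours were chosen by a measured value, so the shares are a description with no test.

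Pgr held the same segment value as Yap1 in 13 of the 26 tumours, within 0.001. Trpc6 did so in 14, Arhgap42 in 11 and Cntn5 in 3. Pgr and Trpc6 shared a value in 23 of the 26, and Pgr and Arhgap42 in 22. Pgr thus had the value of its immediate neighbours in most of these tumours, whether or not that was the value of Yap1.

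**Figure D1:**
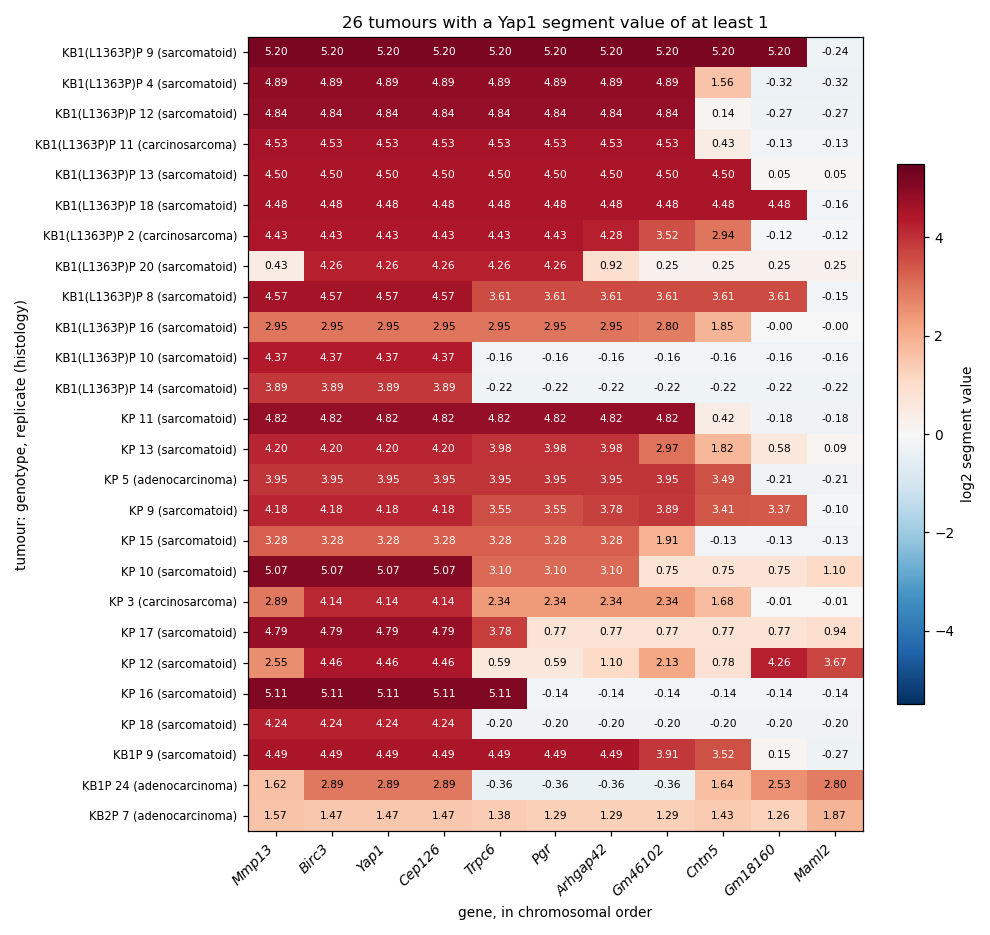
Log2 segment values (colour and printed number) of 11 genes in chromosomal order in the 26 tumours with a Yap1 segment value of at least 1, sorted within genotype by the value of Pgr. Mmp13, Birc3, Yap1 and Cep126 are mostly red along a row, and the colour breaks off before Trpc6, before Pgr or around Cntn5; Pgr is below 1 in 7 rows.

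In KB1(L1363P)P tumours Pgr was carried in 10 of the 12 with Yap1 at high-level gain, and in 9 of these 10 it held the very value of Yap1. Pgr and Yap1 were both at 4.43 in replicate 2, 4.89 in replicate 4, 5.20 in replicate 9, 4.53 in replicate 11 and 4.84 in replicate 12. They were both at 4.50 in replicate 13, 2.95 in replicate 16, 4.48 in replicate 18 and 4.26 in replicate 20. In these 9 tumours the segment values had no step between Yap1 and Pgr, but in replicate 20 the unsegmented log2 ratio was 4.68 at Yap1 and 3.22 at Pgr. In replicate 8 Pgr was lower than Yap1 but still high, at 3.61 against 4.57. Pgr was left out of the amplicon in replicate 10, at -0.16 against a Yap1 value of 4.37, and in replicate 14, at -0.22 against 3.89. In both of these tumours Trpc6, Arhgap42 and Cntn5 had the value of Pgr, so the amplicon ended between Yap1 and Trpc6. The Pgr copy score in the 10 tumours that carried it ran from 15 in replicate 16 to 73 in replicate 9.

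In KP tumours Pgr was carried in 7 of 11, and in 3 of those 7 it held the value of Yap1. These 3 were replicate 5, at 3.95, replicate 11, at 4.82, and replicate 15, at 3.28. In 4 KP tumours Pgr was high but below Yap1. It was at 3.55 against 4.18 in replicate 9, 3.98 against 4.20 in replicate 13, 3.10 against 5.07 in replicate 10 and 2.34 against 4.14 in replicate 3. In the remaining 4 KP tumours Pgr was outside the high-level gain. It was at -0.14 against a Yap1 value of 5.11 in replicate 16 and at -0.20 against 4.24 in replicate 18, both at the neutral copy score of 2. It was at 0.59 against 4.46 in replicate 12 and at 0.77 against 4.79 in replicate 17, both a gain of lower level. So in the amplified KP tumours the level of Pgr was mostly not that of Yap1, and in the amplified KB1(L1363P)P tumours it mostly was. This difference in counts was not tested. The 12 amplified KB1(L1363P)P tumours were all in library series 5289, and 9 of the 11 amplified KP tumours, the sarcomatoid ones, in series 5750. Series and genotype cannot be told apart for most of these tumours. The step tests given further on compare mean steps over all tumours of a genotype, amplified or not.

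The 3 other amplified tumours each had their own pattern. KB1P replicate 9, the sarcomatoid KB1P tumour, had Yap1, Trpc6, Pgr and Arhgap42 all at 4.49 and Cntn5 at 3.52. KB1P replicate 24, an adenocarcinoma titled KB1PM, had Yap1 at 2.89 and Trpc6, Pgr and Arhgap42 all at -0.36, below neutral, with Cntn5 at 1.64. KB2P replicate 7 had a low and broad gain, with Yap1 at 1.47, Trpc6 at 1.38, Pgr at 1.29 and Cntn5 at 1.43.

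The mean segment value of Pgr was highest in KB1(L1363P)P, then KP, KB1P and KB2P, whereas the median was highest in KP, and neither KB1(L1363P)P and KP nor KB1P and KB2P differed past the threshold by limma (adjusted p = 0.996 and 0.965). Its segment value averaged 1.78 ± 2.27 (SD, n = 24) in KB1(L1363P)P, with a lowest value of -0.36, a median of 0.03 and a highest of 5.20. In KP it averaged 1.42 ± 1.87 (SD, n = 18), from -0.83 through a median of 0.62 to 4.82. In KB1P it averaged 0.25 ± 0.83 (SD, n = 31), from -0.46 through a median of 0.03 to 4.49, and in KB2P 0.20 ± 0.33 (SD, n = 25), from -0.08 through a median of 0.03 to 1.29. All 4 ranges overlap. The medians of KB1(L1363P)P, KB1P and KB2P were alike, and the KB1(L1363P)P mean rested on the 10 tumours at high-level gain.

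Trpc6 averaged 1.88 ± 2.05 in KP and 1.78 ± 2.27 in KB1(L1363P)P, and 0.24 ± 0.82 in KB1P and 0.20 ± 0.34 in KB2P. Arhgap42 averaged 1.46 ± 1.87 in KP, 1.64 ± 2.21 in KB1(L1363P)P, 0.25 ± 0.83 in KB1P and 0.20 ± 0.33 in KB2P. Cntn5 averaged 0.63 ± 1.24 in KP, 1.00 ± 1.77 in KB1(L1363P)P, 0.32 ± 0.75 in KB1P and 0.20 ± 0.35 in KB2P (all SD, n as for Pgr). Yap1 itself averaged 2.65 ± 2.29 in KP, 2.18 ± 2.31 in KB1(L1363P)P, 0.34 ± 0.94 in KB1P and 0.21 ± 0.36 in KB2P. In KP the mean thus went from 2.65 at Yap1 to 1.42 at Pgr and 0.63 at Cntn5, and in KB1(L1363P)P from 2.18 to 1.78 and 1.00.

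**Figure D2:**
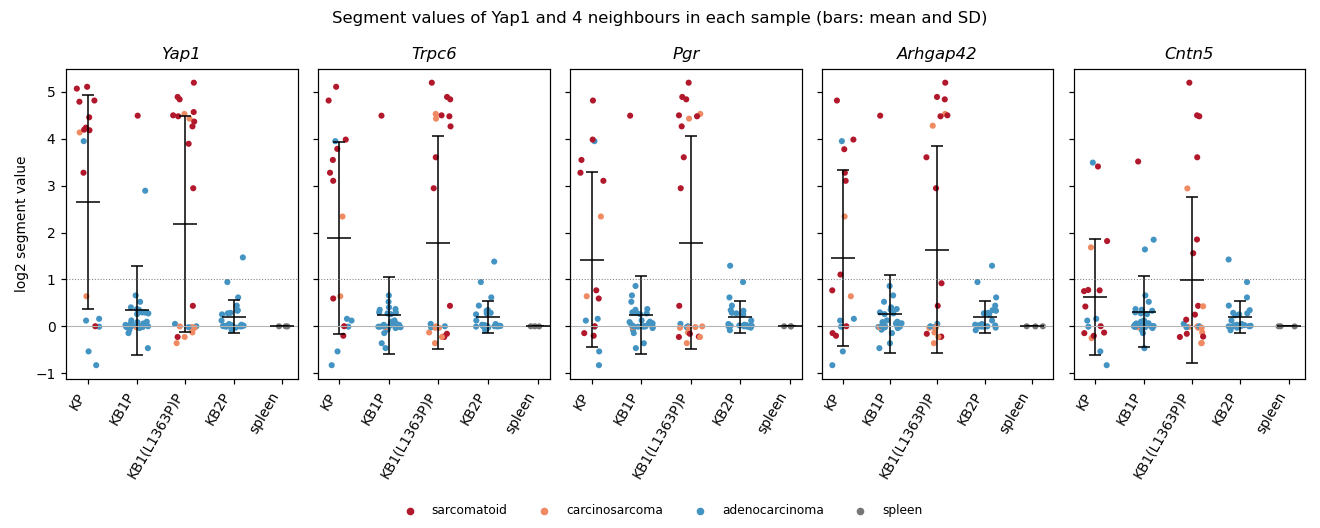
Log2 segment values (vertical axis) of Yap1, Trpc6, Pgr, Arhgap42 and Cntn5 in each sample, by genotype and for the spleens, coloured by histology, with mean and SD as bars and a dotted line at 1. Most points above 1 are sarcomatoid KP and KB1(L1363P)P tumours, and fewer points lie above the line for Cntn5 (15) than for Yap1 (26).

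Mean segment values were compared between genotypes with limma, a linear model with moderated variances fitted to all 43513 genes, with Benjamini-Hochberg adjustment over all of them. Pgr was higher in KB1(L1363P)P than in KB1P by 1.53 (SE 0.38, adjusted p = 0.00368) and than in KB2P by 1.58 (SE 0.40, adjusted p = 0.00814). Pgr was lower in KB1P than in KP by 1.17 (a KB1P minus KP difference of -1.17, SE 0.41, adjusted p = 0.0432), and the KB2P minus KP difference was -1.22 (SE 0.43, adjusted p = 0.0463). Trpc6 and Arhgap42 passed in the same 4 comparisons. Trpc6 differed by 1.55 (adjusted p = 0.00481) and 1.58 (adjusted p = 0.00885) between KB1(L1363P)P and the KB1P and KB2P tumours, and by -1.65 (adjusted p = 0.00514) and -1.68 (adjusted p = 0.00738) between these and KP. For Arhgap42 the values were 1.38 (adjusted p = 0.00862), 1.44 (adjusted p = 0.0102), -1.21 (adjusted p = 0.0339) and -1.26 (adjusted p = 0.0368). Cntn5 passed in none of the limma comparisons of genotypes, and its nearest was KB1(L1363P)P minus KB2P, at 0.80 (adjusted p = 0.0704). Without KB1P replicate 9, KB1(L1363P)P minus KB1P passed at Cntn5 (adjusted p = 0.0418).

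These counts of 3 genes in 4 stand beside 13.5% of all genes called for KB1(L1363P)P minus KB1P, 12.8% for KB1(L1363P)P minus KB2P, 13.5% for KB1P minus KP and 12% for KB2P minus KP. The 4 comparisons share samples, and the 3 genes mostly share a segment. The calls of Pgr against KB1P and KB2P in KB1(L1363P)P tumours held without any single tumour, with adjusted p up to 0.00972 and 0.0137. Both contrasts of KP with the other models were close to the threshold for Pgr. The call of KB1P minus KP was lost in 11 of 49 fits, those without KP replicate 3, 5, 9, 10, 11, 13 or 15 or without KB1P replicate 7, 17, 24 or 31, with differences from -1.31 to -0.97 and adjusted p up to 0.111 over all 49. That of KB2P minus KP was lost in 24 of 43 fits, without the same 7 KP tumours or without KB2P replicate 1, 4, 5, 6, 8, 10, 11, 12, 13, 14, 15, 16, 17, 21, 22, 23 or 24, with differences from -1.36 to -1.02 and adjusted p up to 0.11 over all 43. With unsegmented log2 ratios these 2 differences of Pgr, -1.14 and -1.19, had adjusted p = 0.0558 and adjusted p = 0.053.

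KB1(L1363P)P and KP did not differ past the threshold at Pgr, with a difference of 0.36 and a 95% interval of -0.50 to 1.22 (limma, adjusted p = 0.996), nor at Trpc6 (-0.10), Arhgap42 (0.17) or Cntn5 (0.37). In this comparison limma called 0% of all genes, 15 passed an unadjusted p of 0.05, and none was called on gains by Fisher's exact test. The Pgr difference was 1.57 within library series 5289 (20 and 3 tumours) and -0.96 within series 5490 (4 and 5 tumours). In series 5490 only KP replicate 5 had Pgr at high-level gain, and histology differed between the groups in both series. KB1P and KB2P differed at Pgr by 0.05 (95% interval -0.69 to 0.79, adjusted p = 0.965), with 1.36% of all genes called. The interval for KB1(L1363P)P minus KP reaches past 1, a doubling of copies, so a difference of that size at Pgr was within it.

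**Figure D3:**
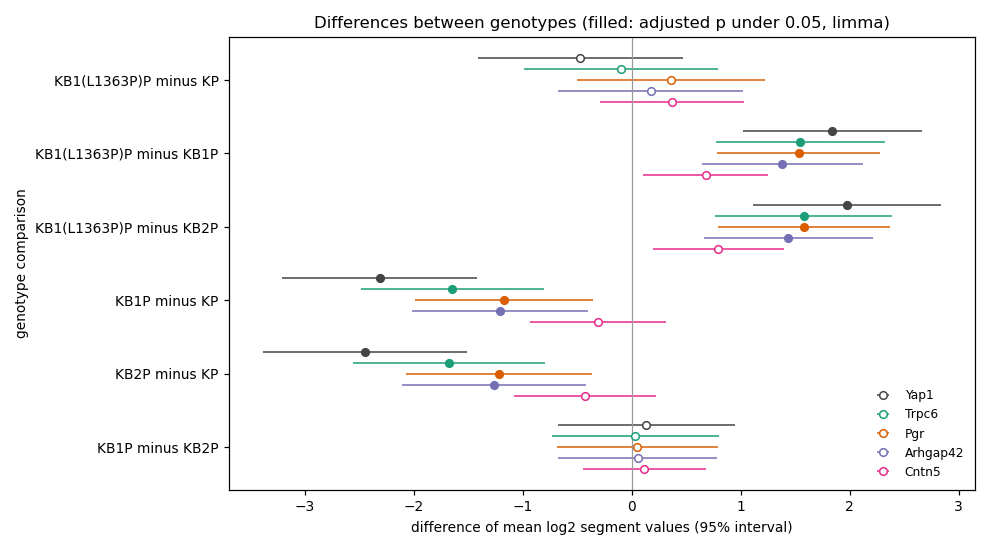
Differences of mean log2 segment values (horizontal axis, with 95% intervals) for Yap1, Trpc6, Pgr, Arhgap42 and Cntn5 in the 6 genotype comparisons; filled points have an adjusted p under 0.05 in limma. In the comparisons with filled points the difference shrinks from Yap1 to Cntn5, whose points are all open.

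Histology moved with genotype, and in a fit with histology as a covariate none of the 4 genes kept a call. Pgr then differed by 0.25 between KB1(L1363P)P and KB1P (limma, adjusted p = 0.851) and by 0.20 between KB1(L1363P)P and KB2P (adjusted p = 0.953). KB1P minus KP turned to 0.08 and KB2P minus KP to 0.13 (adjusted p = 0.971 and 0.981). In that fit the called genes fell from 5886 to 0, from 5567 to 4, from 5872 to 435 and from 5226 to 25. With library series as a block, Pgr differed by 1.55 between KB1(L1363P)P and KB1P (adjusted p = 0.104) and by -1.14 between KB1P and KP (adjusted p = 0.664). Within library series 5289, which holds 20 KB1(L1363P)P, 10 KB1P and 3 KP tumours, the same differences were 1.70 (adjusted p = 0.137) and -0.13 (adjusted p = 0.975). KB2P shares no library series with another genotype, so series and genotype cannot be told apart there.

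None of the 4 genes was called in any of the 6 comparisons by histology, some of them within a histology and some between histologies of a genotype. Sarcomatoid KB1(L1363P)P tumours (n = 12) had Pgr values from -0.23 through a median of 3.93 to 5.20, and sarcomatoid KP tumours (n = 10) from -0.20 through 1.94 to 4.82. The groups overlap over most of their range. The difference of 0.91 at Pgr had a 95% interval of -0.12 to 1.93 and an unadjusted p of 0.0837 in limma (adjusted p = 0.997), and that of 1.04 at Cntn5 an unadjusted p of 0.0138 (adjusted p = 0.997), where 0.0046% of all genes were called. The 10 sarcomatoid KP tumours fill a library series that holds nothing else, so series and group cannot be told apart in this comparison.

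Sarcomatoid tumours of KB1(L1363P)P stood above its carcinosarcomas (n = 9) by 1.97 at both Pgr and Trpc6 (limma, adjusted p = 0.223 for each), with 0.0919% of all genes called. The 9 carcinosarcomas ran from -0.36 through a median of -0.03 to 4.53 at Pgr, with replicates 2 and 11 high. In the labels these are the carcinosarcomas of this genotype with the lowest percentage of epithelial cells. Leaving out single tumours took this adjusted p of Pgr from 0.00959 to 0.931, and in 5 of 21 such fits, those without replicates 2, 6, 10, 11 or 14, it passed, as did Trpc6. Arhgap42 passed without replicate 11 (adjusted p = 0.0462) and Cntn5 without replicate 2 (adjusted p = 0.0209). Yap1 differed by 2.77 there and passed (adjusted p = 0.000542). Sarcomatoid KP tumours stood above KP adenocarcinomas (n = 6) by 1.5 at Pgr and 2.32 at Trpc6 (adjusted p = 0.999 and 0.36), with 0.085% of all genes called, while Yap1 differed by 3.54 and passed (adjusted p = 3.56e-05). Trpc6 passed there without KP replicate 5 or 18, with adjusted p down to 0.00725. In adenocarcinomas the Pgr differences were -0.36 for KB1P minus KP, -0.28 for KB2P minus KP and -0.09 for KB1P minus KB2P. None of these passed (adjusted p = 0.872, 0.943 and 0.943), and 1.88%, 0.00919% and 1.99% of all genes were called.

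By gain calls, Pgr had more than 2 copies in 11 of 24 KB1(L1363P)P, 10 of 18 KP, 6 of 31 KB1P and 6 of 25 KB2P tumours. Losses of Pgr were rarer, in 2 KP tumours, 1 KB1P tumour and none of the KB1(L1363P)P and KB2P tumours, and no tumour had any of the 4 genes at a segment value of -1 or below. The KP losses were replicate 7, at -0.83, and replicate 1, at -0.53, both adenocarcinomas, and in both the whole stretch from Mmp13 to Cntn5 had 1 value.

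Gain frequencies were compared by two-sided Fisher's exact tests on all genes, adjusted over all of them. One of the 4 genes passed in 1 pair: Trpc6 was gained in 6 of 31 KB1P and 11 of 18 KP tumours (adjusted p = 0.0439), where 12.4% of all genes were called. This call was lost when gains were taken from a segment value of 0.2 (adjusted p = 0.219), for high-level gain (adjusted p = 0.315), when tumours titled KB1PM and the one with conflicting labels were left out (adjusted p = 0.109) and within library series 5289 (adjusted p = 1), and in adenocarcinomas the difference turned to 0.575 points (adjusted p = 1). The difference was -41.8 points in the main test, and larger in size for high-level gain (-46.8) and without those tumours (-51.1). It was smaller in size for the 0.2 cut (-28.9) and in series 5289 (-23.3). Pgr in the same pair had adjusted p = 0.0932. For KB1(L1363P)P against KB1P it had adjusted p = 0.129 with 21.2% of all genes called, against KB2P adjusted p = 0.299 with 11.4% called, and against KP adjusted p = 1 with 0% called. For KB2P against KP it had adjusted p = 0.224 with 7.62% called, and for KB1P against KB2P adjusted p = 1 with 0.00919% called. No loss frequency of the 4 genes had an unadjusted p under 0.169.

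Going from Yap1 towards the telomere, changes of more than 0.1 in segment value were placed by the first gene off the Yap1 value. A change within that gene thus counts as lying before it. The first change fell between Yap1 and Trpc6 in 11 of the 26 tumours, 7 of them KP, 3 KB1(L1363P)P and 1 KB1P. In all 11, Cfap300 and Cep126 still had the value of Yap1 and Trpc6 was the first gene off it. In KP replicate 17 the Trpc6 value lay between those on both sides of it, so the change may lie within Trpc6. The change fell between Trpc6 and Pgr in 2 tumours, KP replicate 16 and KB2P replicate 7. Arhgap42 was the first gene off in 2, KB1(L1363P)P replicates 2 and 20. Its value lay between those on both sides of it in each, so the change may lie within Arhgap42. In 8 tumours the first gene off was Cntn5 or a symbol between Arhgap42 and Cntn5. It was Cntn5 in KB1(L1363P)P replicates 4, 11 and 12 and KP replicates 5 and 11. Each time Cntn5 lay between the values on both sides of it, so the change may lie within Cntn5. In 3, KB1(L1363P)P replicates 9, 13 and 18, the first gene off lay beyond Cntn5. No KP tumour was among these last 3.

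A first change need not end the high-level gain. The run of genes at 1 or more that starts at Yap1 was placed in the same way, by the first gene below 1. It ended before Trpc6 in 5 tumours, between Trpc6 and Pgr in 2, between Pgr and Arhgap42 in 1, between Arhgap42 and Cntn5 in 5 and within or beyond Cntn5 in 13. The last gene of this run began 0.149 Mb beyond Yap1 in the shortest cases, with the next gene at 0.539 Mb, and 9.5 Mb beyond it in the longest, KB2P replicate 7. On the centromeric side the run reached a median of 1.34 Mb from the start of Yap1, from 0.18 Mb to 4.8 Mb.

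The 5 tumours whose run ended before Trpc6 were KB1(L1363P)P replicates 10 and 14, KP replicates 12 and 18, and KB1P replicate 24. KP replicates 16 and 17 were the 2 that carried Trpc6 but not Pgr: Trpc6 stood at 5.11 and Pgr at -0.14 in replicate 16, and at 3.78 and 0.77 in replicate 17. No tumour carried Pgr without Trpc6.

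**Figure D4:**
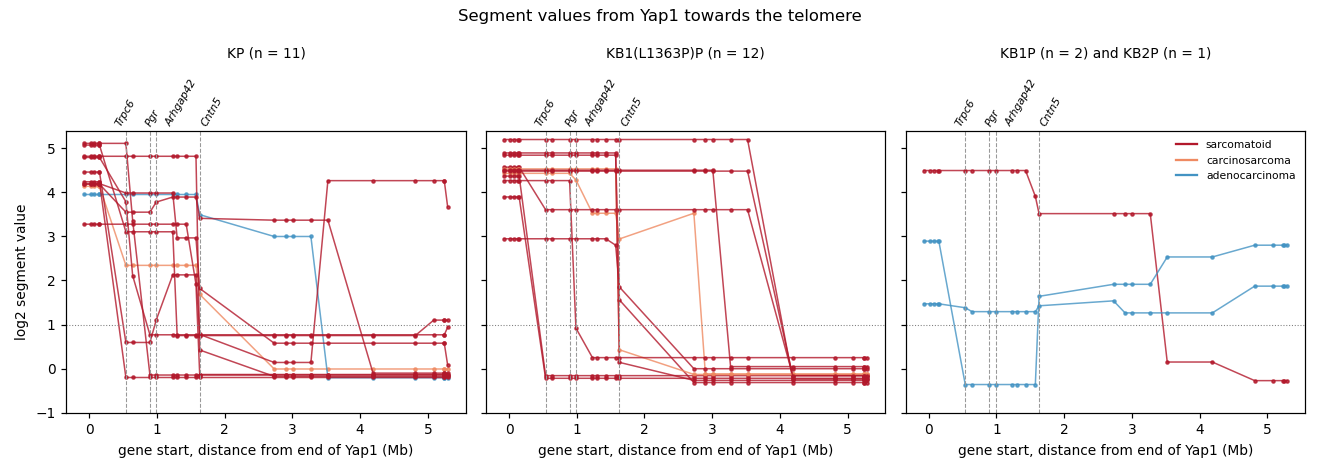
Log2 segment values (vertical axis) of the genes from Yap1 onward against the distance of each gene's start from the end of Yap1 in Mb, 1 line per tumour, in KP (n = 11), KB1(L1363P)P (n = 12), and KB1P and KB2P (n = 2 and 1), coloured by histology. Many KP lines drop at Trpc6, and 7 of the 12 KB1(L1363P)P lines stay level to Arhgap42 and drop beyond it.

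The amplicon was broken up in several tumours. In KP replicate 12 Pgr stood at 0.59, Arhgap42 at 1.1, Cntn5 at 0.78 and the pseudogene Gm18160 beyond it at 4.26. In KB1P replicate 24 the stretch from Trpc6 to Arhgap42 was at -0.36 between Yap1 at 2.89 and Cntn5 at 1.64, with Maml2 farther out at 2.80. KP replicate 9 had Arhgap42 at 3.78, above Pgr at 3.55. KB1P replicate 26, also titled KB1PM, was the only tumour with 1 of the 4 genes at high-level gain and Yap1 below it. There Cntn5 stood at 1.85, Pgr and Arhgap42 at 0.86, and Trpc6 and Yap1 at 0.40.

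The value of a long gene can be a mean over a breakpoint. Cntn5 lay between the values of the symbols on both sides of it in 12 of the 26 tumours, such as KB1(L1363P)P replicate 4, where it stood at 1.56 between 4.89 at Gm46102 and -0.32. Arhgap42 did so in 4 tumours and Trpc6 in 2, but Pgr, the shortest of the 4 genes, in none. In KB1(L1363P)P replicate 20 Arhgap42 stood at 0.92 between 4.26 at Pgr and 0.25 beyond, and the Pgr log2 ratio was 3.22 against its segment value of 4.26, the largest gap between both values at Pgr in any tumour. Over all tumours the median absolute gap of Pgr was 0.05.

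Outside the 26 tumours the region mostly moved as 1 piece. Of the 72 others, Trpc6 had the value of Yap1 in 72, Pgr in 71, Arhgap42 in 70 and Cntn5 in 67. Pgr had a gain call in 12 of these 72 tumours, with 0.95 in KB2P replicate 9 and 0.86 in KB1P replicate 26 as the highest.

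The step from Yap1 to each gene, the Yap1 segment value minus that of the gene in the same tumour, was tested against 0 by sign-flip permutation tests with 100000 resamples, two-sided, in all tumours of a genotype. In KP the step to Pgr averaged 1.23 ± 1.86 (SD, n = 18), from 0 through a median of 0 to 5.25, and it was positive in 8 tumours (permutation p = 0.00822, the smallest that 8 non-zero steps allow being 0.00781). In KB1(L1363P)P it averaged 0.40 ± 1.22 (SD, n = 24), from 0 to 4.53, positive in 3 tumours (permutation p = 0.248), and it was 0.22 without replicate 10 and 0.24 without replicate 14. With 3 non-zero steps no p below 0.25 could be reached by exact enumeration, so this test could not pass. On unsegmented log2 ratios, where no step is exactly 0, the mean was 0.54 with 10 of 24 steps above 0.1 (permutation p = 1e-05, the smallest the resampling can give). The median of these 24 steps was 0.08 and the lowest -0.04, and in KB2P, with 1 amplified tumour, the same ratios also passed for mean steps of -0.046 to Arhgap42 and -0.041 to Cntn5 (permutation p = 0.00567 and 0.0087). A pass on these ratios is thus no measure of a step at the amplicon. In KB1P the mean step was 0.09 ± 0.59 (n = 31, 2 non-zero steps, and -0.015 without replicate 24) and in KB2P 0.01 ± 0.04 (n = 25, 1 non-zero step), where permutation tests could not pass either.

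In both amplified genotypes the mean step was largest to Cntn5, the farthest gene. In KP it averaged 0.77 to Trpc6 (permutation p = 0.0161), 1.19 to Arhgap42 (permutation p = 0.00822) and 2.03 to Cntn5 (permutation p = 0.0005). In KB1(L1363P)P it averaged 0.40 to Trpc6 (permutation p = 0.248), 0.55 to Arhgap42 (permutation p = 0.0624) and 1.19 to Cntn5 (permutation p = 0.00183), positive in 10 of 24 tumours. All non-zero steps in both genotypes were positive, so each p was about the smallest its number of non-zero steps allows. In KP these limits are 0.0156 to Trpc6, 0.00781 to Arhgap42 and 0.000488 to Cntn5. In KB1(L1363P)P they are 0.25, 0.0625 and 0.00195, so the tests to Trpc6 and Arhgap42 could not pass. A pass here thus reflects how many tumours had a step, not the size of the steps.

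The test of the difference in mean step between these 2 genotypes, over all their tumours, did not pass. The step to Pgr was smaller in KB1(L1363P)P than in KP by 0.83 (a difference of -0.83, permutation p = 0.0932, adjusted p = 0.186 over the 6 pairs of genotypes). Among sarcomatoid tumours alone the mean step to Pgr was 2.04 in KP (n = 10, 7 positive, exact p = 0.0156) and 0.80 in KB1(L1363P)P (n = 12, 3 positive, exact p = 0.25). Both exact p are the smallest that their non-zero steps allow. The difference of -1.24 had a permutation p of 0.134. Within library series 5289 it was -0.12 (20 and 3 tumours, exact p = 0.713). The step to Pgr was smaller in KB1P and KB2P than in KP by 1.14 and 1.23 (permutation tests of -1.14 and -1.23, adjusted p = 0.0161 and 0.00312), genotypes in which Yap1 was rarely amplified. In adenocarcinomas alone these differences turned to 0.096 and 0.0071 (exact p = 1 for both). All 6 KP steps were 0 there, and only 2 of 29 KB1P and 1 of 25 KB2P steps were not, so neither test could pass. Within library series 5289 KB1P minus KP was -0.60 (10 and 3 tumours, exact p = 0.462). All KB1P steps were 0 there and only KP replicate 3 had a step, so this test could not pass either.

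**Figure D5:**
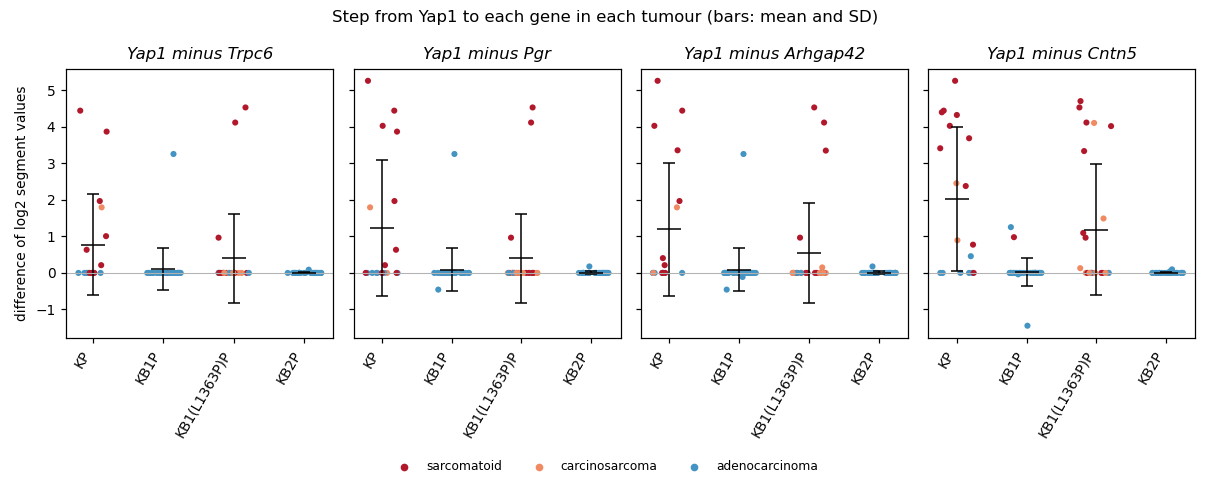
Step from Yap1 to Trpc6, Pgr, Arhgap42 and Cntn5 (difference of log2 segment values, vertical axis) in each tumour by genotype, coloured by histology, with mean and SD as bars. Most tumours sit at 0; for Pgr, 8 KP and 3 KB1(L1363P)P tumours lie above 0.1, and for Cntn5 12 and 10.

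Some KB1(L1363P)P tumours share a number in their titles, which may mean a shared mouse. In the pair numbered 7.1 and 7.2, the sarcomatoid replicate 18 had Yap1 and all 4 neighbours at 4.48, and the adenocarcinoma replicate 19 had all of them at -0.02. The pairs 26.1 and 26.2, and 54.1 and 54.2, had no high-level gain of any of these genes.

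Over the 98 tumours, the Pgr segment value followed that of Arhgap42 with a Pearson r of 0.98, Trpc6 with 0.93, Yap1 with 0.81, Mmp13 with 0.79 and Cntn5 with 0.75. Among genes on other chromosomes, taking 1 per chromosome, the closest were Has3 on chromosome 8 (r = 0.39), which encodes a hyaluronan synthase, Nabp2 on chromosome 10 (r = 0.33), which encodes a single-stranded DNA binding protein, and the non-coding Gm33524 on chromosome 14 (r = 0.28). These values rest mostly on the tumours at high-level gain, share library and tumour content, and are given as a description.

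Other genes of progesterone and oestrogen signalling lie elsewhere in the genome and showed small differences. Of 30 listed genes, 4 were lower in KB1(L1363P)P than in KB1P and none higher, with a list median of -0.07 against -0.05 over all genes. That count is close to the 13.5% of all genes called in this pair, so it is not a result about the list. Fkbp4, a chaperone of steroid receptors, differed by -0.30 (limma, adjusted p = 0.0181), Ncoa3, a receptor co-activator, by -0.27 (adjusted p = 0.0123) and Tnfrsf11a, the receptor of the progesterone-induced ligand RANKL, by -0.22 (adjusted p = 0.0191). The fourth was Gata3, at -0.21. Against KB2P, Fkbp4, Ncoa2 and Ncoa3 were lower by -0.34, -0.32 and -0.32, with a list median of -0.0032 against -0.0091 and 12.8% of all genes called. Compared with KP, 3 genes were higher in KB1P and 3 in KB2P, Fkbp4 and Ncoa3 among them in both (0.28 and 0.26, and 0.32 and 0.30), with list medians of 0.09 against 0.04 and 0.04 against -0.0023. All genes were called at 13.5% and 12% in these pairs, so 3 of 30 is no more than the background. None was called between KB1(L1363P)P and KP or between KB1P and KB2P. The called genes of this list differed by 0.34 at most in size, where Pgr differed by 1.17 to 1.58.

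The gene families of Trpc6 and Cntn5 were followed in the same way. Of 6 TRPC channel genes other than Trpc6, only Trpc4 was called in any pair, higher in KB1(L1363P)P than in KB1P by 0.21 (limma, adjusted p = 0.0411), with a list median of 0.05 against -0.05 over all genes and 13.5% of all genes called. The TRPC list median lay between -0.14 and 0.15 in the other 5 pairs. Of 5 other contactin genes, Cntn3, Cntn4 and Cntn6, which all lie on chromosome 6, were lower in KB1(L1363P)P than in KB1P by -0.41, -0.42 and -0.41, joined by Cntn2 at -0.20, with a list median of -0.41 against -0.05. These 4 of 5 stand beside 13.5% of all genes, but 3 of them lie together on 1 chromosome and are not separate observations. In KB1(L1363P)P the same 3 were lower than in KB2P by -0.28, -0.27 and -0.29, and they were higher than in KP by 0.44 each in KB1P and by 0.30, 0.29 and 0.31 in KB2P. In these 3 pairs 12.8%, 13.5% and 12% of all genes were called, and the list medians were -0.27 against -0.0091, 0.44 against 0.04 and 0.29 against -0.0023. Cntn5 itself had the opposite sign, at 0.68 for KB1(L1363P)P minus KB1P, without passing (adjusted p = 0.0999).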

How the data were processed

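Low-coverage DNA sequencing of 98 tumours and 3 spleens was analysed. Reads were counted in 20 kb bins after BWA alignment and corrected for GC content and mappability, per the labels' protocols. The submitters' processing notes name cutadapt 2.5, BWA 0.7.17, SAMtools 1.10, Picard and mm10, whereas the protocol names a human build. The authors deposited log2 ratios, log2 segment values and a whole-number copy score per gene symbol. Doubling the antilog of the segment value and rounding gave the copy score of the authors in 99.9919% of values. How segments were made and bins assigned to genes is not stated in these sources, and read depth is unknown. A gene longer than a stretch of equal copy number gets a mixed value.

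Positions came from the GRCm38.p6 gene table, which placed 32687 of 43513 symbols. Segment values were compared with limma 3.58.1 (R 4.3.3), gains by Fisher's exact test, both adjusted over all genes, and steps by permutation tests (NumPy 2.4.6, SciPy 1.17.1, Python 3.11.15). Each was tested on simulated data. Since separate mice are not identified, p-values cover only the spread between these samples, which may be partly technical. The tumour whose title and description disagree, and 10 titled KB1PM, were kept.

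The genes, lists and tests were chosen with earlier results of these data known. Named were the 4 genes, Yap1, Birc2, Birc3, Mmp13, coding genes beside an edge, the 3 closest genes on other chromosomes and up to 3 called genes of a list per comparison. Gata3, Cntn2, Maml2 and the Gm symbols were named after their values were seen. Alternatives covered values, thresholds, histology, library series, uncertain labels and single tumours. One further gene list is not reported here.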

Additional observations from a re-analysis of the deposited data

Results flagged for a closer look

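In groups of 4 to 10 tumours, a value was taken as standing apart where its gap to the nearest other tumour made up more of the group's range than Dixon's 95% limit, which chance alone passes in about 1 of 20 groups where values are not tied. In KP adenocarcinomas (n = 6) the highest tumour, replicate 5, stood apart at Trpc6, Pgr and Arhgap42, with a gap of 0.793 of the range for each, and at Cntn5, with 0.771. Its step from Yap1 to Cntn5 was the only non-zero step of that group, a gap of 1. In KB1(L1363P)P carcinosarcomas (n = 9) replicate 2 stood apart at Cntn5, with 0.762 of the range, and its step from Yap1 to Arhgap42 was the only non-zero one, a gap of 1. With all other steps tied at 0, both gaps of 1 follow from there being a single non-zero step, whatever its size, and Dixon's limit says nothing about them. The step to Cntn5 of replicate 11 stood apart in the same group, with 0.637. Only 3 of those 9 steps were non-zero and the others were tied at 0, so Dixon's limit does not hold for this gap either.

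The step from Yap1 differed between genotypes past the threshold in 9 permutation tests with 100000 resamples, adjusted over 6 pairs for each gene. KB2P minus KP was -0.77 at Trpc6, -1.23 at Pgr, -1.18 at Arhgap42 and -2.02 at Cntn5 (adjusted permutation p = 0.0103, 0.00312, 0.00312 and 6e-05). KB1P minus KP was -1.14 at Pgr, -1.10 at Arhgap42 and -2.0 at Cntn5 (adjusted permutation p = 0.0161, 0.017 and 6e-05). KB1(L1363P)P minus KB1P was 1.16 at Cntn5 and KB1(L1363P)P minus KB2P 1.18 (adjusted permutation p = 0.00126 for both). Within library series 5289 no pair passed for any of the 4 genes, with 1.32 at Cntn5 for KB1(L1363P)P minus KB1P (permutation p = 0.0355, adjusted p = 0.106). In adenocarcinomas alone none passed either, with 0.0079 and -0.0057 at Cntn5 for KB1(L1363P)P minus KB1P and minus KB2P (exact p = 1 for both). The 3 KB1(L1363P)P adenocarcinomas all had steps of 0, as had the 6 KP ones to Trpc6, Pgr and Arhgap42. With so few non-zero steps the tests with these groups could not pass. Yap1 was at high-level gain in 2 KB1P tumours and 1 KB2P tumour. The largest step in a tumour without high-level gain of Yap1 was -1.44, to Cntn5 in KB1P replicate 26.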

How the results depend on the processing

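Apart from fits without single tumours, 313 of 404 recomputed values kept direction and side of the threshold, and the cause of the changes below was not tested. No paired analysis was possible because replicate numbers only name tumours. With histology as a covariate, Pgr became 0.25 (KB1(L1363P)P minus KB1P), 0.20 (KB1(L1363P)P minus KB2P), 0.084 (KB1P minus KP), 0.126 (KB2P minus KP) and -0.042 (KB1P minus KB2P), Trpc6 -0.064 (KB1(L1363P)P minus KB2P) and -0.079 (KB1P minus KB2P), Arhgap42 0.015 (KB1P minus KP), 0.054 (KB2P minus KP) and -0.039 (KB1P minus KB2P), and Cntn5 0.33 and 0.26 (KB1P and KB2P minus KP). With library series as a block, Pgr was 1.55 (KB1(L1363P)P minus KB1P, called genes 5886 to 1336) and -1.14 (KB1P minus KP, 5872 to 0), and Trpc6 0.40 (KB1(L1363P)P minus KP). In series 5289 alone, Pgr was 1.70 and -0.13 for these pairs, its step difference KB1P minus KP -0.60, its gain difference KB1(L1363P)P minus KP 21.7 points and that of Trpc6 segment values 1.57, with 852 genes called for KB1P minus KP and 3 for KB1(L1363P)P minus KP. In series 5490, chosen after seeing the data, KB1(L1363P)P minus KP was -0.96 at Pgr and Arhgap42 and -0.72 at Cntn5. Robust moderation gave Pgr -1.17 (KB1P minus KP) and -1.22 (KB2P minus KP), neither past the threshold, as did log2 ratios (-1.14 and -1.19) and leaving out KB1PM titles and the conflicting label (-1.15 and -1.22). Without 1 of 2 near-alike KB2P profiles, also added later, KB2P minus KP was -1.21. Without second tumours of a shared number Trpc6 was 0.15 for KB1(L1363P)P minus KP. On log2 ratios the Pgr step of KB1(L1363P)P became 0.54 and its difference from KB2P 0.52, both past the threshold, and steps of KB2P turned to -0.046 (Arhgap42) and -0.041 (Cntn5). In adenocarcinomas alone the Pgr step of KP was 0, Pgr step differences were -0.096 (KB1(L1363P)P minus KB1P), -0.0071 (KB1(L1363P)P minus KB2P), 0.096 (KB1P minus KP) and 0.0071 (KB2P minus KP), those of Arhgap42 0.093 and 0.0071, of Trpc6 0.0035 (KB2P minus KP) and of Cntn5 -0.0057 (KB1(L1363P)P minus KB2P), and the Cntn5 step of KB1P was -0.0079. Gain differences there were 0.575 points for Pgr and Trpc6 (KB1P minus KP) and 7.33 for Pgr (KB2P minus KP). The gain difference of Pgr between KB1(L1363P)P and KP was 2.78 points for high-level gain and 5 in sarcomatoid tumours. With any Yap1 gain as the base, Pgr was at high-level gain in 19 of 38 tumours (50%). The tumours added to that base had Yap1 itself below high-level gain, so this is not the share in which Pgr was gained. Of the 26 tumours with high-level gain of Yap1, 50% had Pgr within 0.1 of Yap1.

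Without single tumours, Pgr differences ran from 1.38 to 1.67 (KB1(L1363P)P minus KB1P), 1.43 to 1.68 (KB1(L1363P)P minus KB2P), 0.21 to 0.56 (KB1(L1363P)P minus KP), -1.31 to -0.97 (KB1P minus KP), -1.36 to -1.02 (KB2P minus KP) and -0.090 to 0.097 (KB1P minus KB2P). Between histologies they ran from 1.76 to 2.43 (KB1(L1363P)P sarcomatoid minus carcinosarcoma), 0.66 to 1.22 (sarcomatoid KB1(L1363P)P minus KP) and 1.18 to 2.19 (KP sarcomatoid minus adenocarcinoma). In adenocarcinomas they ran from -0.62 to 0.33 (KB1P minus KP), -0.54 to 0.42 (KB2P minus KP) and -0.11 to -0.04 (KB1P minus KB2P). The Pgr step ran from -0.015 to 0.108 in KB1P, from 1.00 to 1.30 in KP and from 0.22 to 0.42 in KB1(L1363P)P. Arhgap42 lost its calls of KB1P minus KP and KB2P minus KP in 7 fits each, without KP replicate 3, 5, 9, 10, 11, 13 or 15 (adjusted p up to 0.0853 and 0.0873).

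Counts of called genes also moved with other settings. Fisher's exact test on high-level gain called 0 genes in each pair. Without KB1PM titles and the conflicting label it called 179 genes for KB1P minus KP and 1922 for KB1(L1363P)P minus KB1P. The depth behind each value is unknown.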
